A study of Mus musculus with 4 samples.

Results

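Nuclei carrying RNA of 5 megakaryocyte genes (Vwf, Trpc6, Rab27b, Med12l and Itga2b) were examined in a single-nucleus multiome of mouse bone marrow, in which RNA molecules and open chromatin are counted in the same nucleus. Barcodes were kept with at least 200 detected genes and with 1000 to 50000 ATAC counts in peaks, and a nucleus was a member when its unique molecular identifiers (UMIs) of the 5 genes summed to 3 or more. Of 13619 kept nuclei, 127 were members, 77 of 5905 in library 1 and 50 of 7714 in library 2. The values of these 5 genes chose the members, so they are given below as a description only.

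The study sorted lineage-negative, cKit-positive bone marrow cells (Lin-cKit+), a gate that holds hematopoietic stem and progenitor cells (HSPCs), from C57BL/6 mice. One group (Ctrl) stayed unligated, and the other (Lig) carried a silk ligature around molar teeth for 14 days, a model of periodontitis. Marrow of several young adult male mice was pooled into 1 sample per group, and every sample was sequenced for RNA and for ATAC, which leaves 1 sample in each of the 4 labelled groups and no replicates. In the matrix used here the nuclei of both samples stand together under barcode suffixes 1 and 2. No label ties a suffix to Ctrl or Lig, so the suffixes are called library 1 and library 2 and are assigned to no group. If each suffix is 1 sample, a difference between libraries also holds any difference between the groups, in an unknown direction. Nothing below reads such a difference as an effect of the ligature.

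Megakaryocytes are the large polyploid cells of the marrow that shed platelets. Their progenitors arise from multipotent progenitors or directly from stem cells, depend on thrombopoietin, and are set apart by the transcription factors GATA1, GATA2, FLI1, RUNX1, TAL1 and NF-E2. While they mature they gain the von Willebrand factor receptor complex (Gp1ba, Gp1bb, Gp5 and Gp9), the fibrinogen receptor made of Itga2b and Itgb3, and granules loaded with Pf4 and Vwf. Stem cells biased towards platelets also express Vwf, so the gene does not separate the first steps of the lineage from the stem cell.

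The members were shallow, as single nuclei are. Their median was 1940 UMIs in library 1 and 1779 in library 2, against 1636 and 1515 in the other kept nuclei, and the median number of detected genes was 848 and 534.5 against 634 and 409. A nucleus with more UMIs reaches a sum of 3 more easily, and this higher depth moves with membership. ATAC depth was closer, with medians of 19594 and 17029 counts in peaks against 19467.5 and 16275. Summed over members there were 168043 UMIs and 1514835 ATAC counts in library 1 and 95787 UMIs and 949031 ATAC counts in library 2, so that 1 UMI was worth 5.95 and 10.4 CPM (UMIs scaled to a total of 1000000). The 45S ribosomal RNA locus genes took 40.3% and 50.8% of the members' UMIs and 43.1% and 53.2% of those of the other nuclei. Of the barcode sequences, 146 occurred in both libraries, 72 of them among kept nuclei. None of these sequences was a member in both libraries, and 4 members had a barcode kept in both. No doublets were removed, and 5 of the 77 and 1 of the 50 members lay in the top 8% of doublet scores of their library. Intervals in parentheses are at 95% and account for counting alone, since cells of 1 library are not replicates, and no test was made.

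Med12l, a subunit of the Mediator kinase module that lies at chr3:59005825-59318682 on the plus strand of GRCm38, carried most of the selection. It gave 323 UMIs in 121 members (95.3%) and was seen in 4.03% of the other nuclei. Itga2b, the alpha chain of the fibrinogen receptor, followed with 109 UMIs in 69 members (54.3%), against 1.36% of the others. Trpc6, a calcium channel, gave 68 UMIs in 42 members, Vwf, the adhesive protein of platelet granules, 59 UMIs in 38 members, and Rab27b, a GTPase of granule release, 40 UMIs in 30 members. Each of these last genes was found in between 0.356% and 0.408% of the other nuclei.

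The sum of the 5 genes was exactly 3 in 48 members, at least 5 in 52 and at least 10 in 2, with a highest value of 29, and its median was 5 in library 1 and 4 in library 2. Just outside the rule were 125 nuclei with a sum of 2 (67 in library 1 and 58 in library 2), and 700 nuclei had a sum of 1. A single gene of the 5 supplied the whole sum in 18 members, in 15 of them Med12l. At least 3 of the 5 genes were present in 50 members. Vwf and Trpc6 were found together in 14 members, and Med12l and Itga2b in 64.

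The name was set beside 16 other megakaryocyte markers that the rule did not use, a list chosen with earlier results of these data known. Together they gave 83 UMIs in the members of library 1 (494 CPM, 393 to 612), 2.45 times the level in the other nuclei (1.94 to 3.05), and 40 UMIs in library 2 (418 CPM, 298 to 569), 3.92 times that level (2.79 to 5.36). Mctp1, a calcium-binding membrane protein that was found in 23.7% and 13.2% of the other nuclei, made up 39 and 16 of these UMIs. Without it, a split chosen after its values were seen, the 15 remaining markers gave 44 UMIs in members against 208 in all other nuclei of library 1, a CPM ratio of 12.7 (8.99 to 17.7), and 24 against 175 in library 2, a ratio of 17.8 (11.1 to 27.4). Stem-like nuclei that were not members (at least 3 UMIs of Mecom, Hlf, Prdm16 and Myct1) were level with members for all 16 markers in library 1, at 467 CPM (379 to 569) on 97 UMIs, of which Mctp1 gave 78. Without Mctp1 they were at 91.4 CPM (55.1 to 143) against 262 (190 to 352) in members in library 1, and at 47.6 (5.77 to 172) on 2 UMIs against 251 (161 to 373) in library 2.

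Pf4, a chemokine of platelet alpha granules, gave 17 UMIs in members against 29 in all other nuclei of library 1, a CPM ratio of 35.3 (18.2 to 66.5), and 8 against 19 in library 2, a ratio of 54.7 (20.7 to 131). Itgb3, the partner of Itga2b, gave 9 and 6 UMIs, with ratios of 14.3 (6.07 to 30.03) and 19 (6.595 to 45.02). Slc35d3, a transporter needed for dense granules, gave 2 and 6 UMIs, and Gucy1a1, a subunit of soluble guanylate cyclase, 5 and 1. Gp5 gave 3 and 2, Gp1ba 2 and 0, Gp9 1 and 0, and Clec1b 1 and 0. In the members of both libraries 6 markers were at 0, namely Gp1bb and Gp6, which encode platelet surface receptors, Ppbp, a granule chemokine, F5, coagulation factor V, Rasgrp3, an activator of small GTPases, and Tubb1, the beta tubulin of proplatelets. A count of 0 allows up to 17.9 CPM in library 1 and 31.3 CPM in library 2. Summed over members, RNA of Pf4 and Itgb3 was thus above the other nuclei, with few or no UMIs of the von Willebrand factor receptor genes and none of Tubb1. At 17 UMIs over 77 members and 8 over 50, most single members held no UMI of Pf4.

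**Figure D1:**
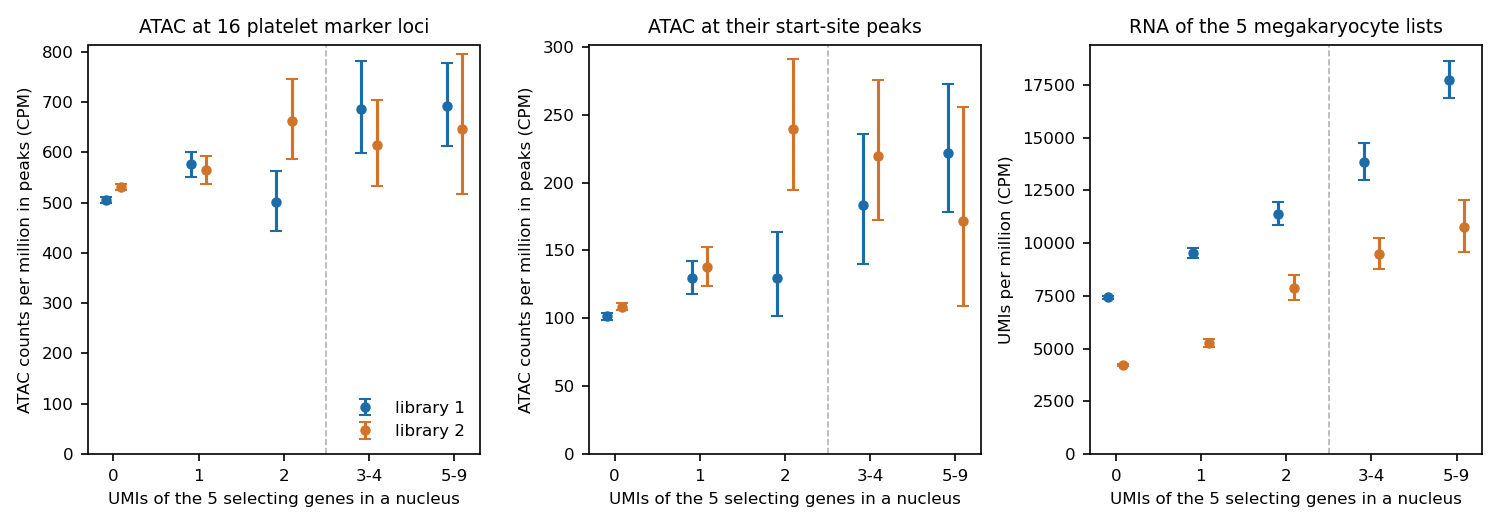
Nuclei of each library grouped by their summed UMIs of the 5 selecting genes (x axis; the dashed line marks the minimum of 3), with ATAC counts in CPM at 135 peaks of 16 unused marker loci (left) and at their 20 start-site peaks (middle), and RNA of the 5 megakaryocyte lists in CPM (right); bars are 95% counting intervals. RNA of the lists is higher at each larger sum in both libraries, from 7431 to 17742 CPM in library 1, while in the left panel nuclei with a sum of 2 lie near the members in library 2 (663 CPM) and not in library 1 (501 CPM).

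The rule did not use chromatin, which was counted in the same nuclei as the RNA, and it was read at the same 16 markers. The 135 peaks at their loci (from 10 kb upstream of a gene to its end) held 688 ATAC CPM (ATAC counts scaled to a total of 1000000 over all peaks; 630 to 750) in the members of library 1 against 509 in the other nuclei, and 623 (554 to 698) against 532 in library 2. With the locus of Mctp1 left out, the ratios of members to other nuclei at the remaining 93 peaks were 1.46 (1.33 to 1.61) and 1.31 (1.16 to 1.49). Among non-member nuclei of other marker sets, the stem-like set had 582 (536 to 632) and 560 (454 to 683) ATAC CPM at the 135 peaks, and the basophil and mast cell set 516 (433 to 611) and, in 13 nuclei of library 2, 650 (501 to 829), no lower than members. Of the members, 54 of 77 (70.1%) and 30 of 50 (60%) lay above the median nucleus of the rest. At the 20 peaks on the start sites of these markers members had 203 ATAC CPM (172 to 238) against 103 in library 1 and 205 (167 to 251) against 111 in library 2. The stem-like set was there at 147 (124 to 173) and 178 (121 to 253) and the basophil and mast cell set at 112 and 111. Summed over these peaks, the start sites were thus more open in members than in the rest in both libraries. Marker by marker, 8 of 15 readable promoters (53.3%) were at least 1.5-fold higher in both libraries, and that of F5 was lower. Over all promoters 4.14% were higher and 7.01% were lower by the same rule, which is given in full with the promoters below. Nuclei just inside the rule, with a sum of exactly 3, had 671 and 580 ATAC CPM at the 135 peaks, and those just outside, with a sum of 2, had 501 and 663. The 18 members that rested on 1 gene alone had 510 (383 to 666) and 532 (390 to 710) there, intervals that hold the level of the other nuclei and overlap those of all members. At the start-site peaks these 18 had 210 (131 to 318) ATAC CPM in library 1 and 145 (75.9 to 250) in library 2, where the interval holds the other nuclei, and their RNA of the 5 lists given next was at 12761 and 7498 CPM, above the other nuclei. At the loci of 36 granulocyte-monocyte and lymphoid genes, members had 1055 and 1047 ATAC CPM, below the 1428 and 1390 of the rest.

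The RNA of 5 lists of megakaryocyte function (surface receptors, granules, signalling, cytoskeleton and transcription factors) made up 16162 CPM (15560 to 16782) of the members of library 1 against 7623 CPM of the other nuclei, and 9866 CPM (9247 to 10515) against 4292 in library 2. Stem-like nuclei that were not members stood between, at 12936 CPM (12451 to 13434) and 6073 (5351 to 6866). It was higher at each larger sum. In library 1 it was 7431 CPM at a sum of 0, 9518 at 1, 11398 at 2, 13859 at 3 to 4 and 17742 at 5 to 9, and in library 2 it was 4217, 5285, 7878, 9497 and 10759. A gene was counted as higher or lower when its CPM differed at least 2-fold in the same direction in both libraries, with 5 CPM added, among genes that had 50 or more UMIs per library. By this rule 209 of 8385 genes (2.49%) were higher in members and 395 (4.71%) were lower. A gene near the minimum of 50 UMIs is expected to give few or no UMIs in members, so lower calls can be genes at 0 there. Among the 4110 genes with at least 200 UMIs per library 2.12% were higher and 2.48% were lower. The balance of higher and lower genes moved with marker sum and depth, with 150 higher and 160 lower at a sum of 2. After thinning to 1000 UMIs there were 285 and 1473. Of the genes in these lists 86 had enough UMIs to be read, of which 25 (29.1%) were higher and 2 were lower. The median log2 ratio of the 86 was 0.42 in library 1 and 0.87 in library 2, beside 0.04 and 0.08 over all genes. The RNA that selects a nucleus is part of the same RNA, so these counts describe the members and test nothing.

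Among the surface receptors, 3 of 5 readable genes were higher: Itga6, a laminin-binding integrin chain also found on stem cells, Cd9, a tetraspanin, and Ptger3, a prostaglandin E2 receptor. Itga6 was at 119 CPM against 29.4 in library 1, a ratio of 4.04 (2.44 to 6.36), and at 115 against 18.1 in library 2, a ratio of 6.35 (3.13 to 11.6). Cd9 and Ptger3 rested on 6 and 4 UMIs each. The other 22 of the 27 receptor genes, the von Willebrand factor receptor included, had too few UMIs to be read by this rule.

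Granule genes passed in both directions. Of 17 readable genes, 3 were higher (Nbea, Slc18a2 and Rab38) and 2 were lower (F13a1 and Vipas39, the latter at a log2 ratio of 0.023 in library 2 when a sum of 2 was enough), and the summed list was 1.14 times (1.0 to 1.30) and 1.21 times (1.0 to 1.45) the level of other nuclei. Slc18a2, the transporter that loads monoamines into dense granules, was 6.08 times (3.78 to 9.35) and 3.07 times (0.828 to 8.02) the level of the others, and in library 2 its log2 ratio turned to -1.96 after thinning to 1000 UMIs. F13a1, the A chain of coagulation factor XIII, which monocytes also make, was at 41.7 CPM against 282 in library 1 and at 94.0 against 241 in library 2.

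Of 21 readable genes for signalling molecules of the platelet, 9 were higher in members and none were lower. Prkg1, the cGMP-dependent kinase (chr19:30564489-31765033, minus strand), was at 1041 CPM against 58.6 in library 1, a ratio of 17.8 (14.9 to 21.1), and at 480 against 30.6 in library 2, a ratio of 15.7 (11.3 to 21.3). Pde5a, the phosphodiesterase that degrades cGMP, was higher 10.7 times (6.78 to 16.4) and 20.2 times (10.0 to 37.4). A kinase that cGMP drives and an enzyme that removes cGMP were thus both among the leading genes. Tbxas1, thromboxane synthase, had ratios of 11.2 (7.67 to 15.98) and 6.84 (2.90 to 13.8), and Inpp4b, a phosphoinositide phosphatase, 6.92 (5.01 to 9.38) and 19.6 (12.6 to 29.2). Also higher were the protein kinase C genes Prkca and Prkcq, Rgs18, a regulator of G protein signalling in platelets, Fermt3, the kindlin that activates integrins, and Arhgap6.

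Of 19 readable genes of the cytoskeleton and of proplatelet formation, 3 were higher: Diaph1, a formin, Vcl, vinculin, and Tpm1, a tropomyosin. Diaph1 was 2.41 times (1.87 to 3.06) and 3.60 times (2.42 to 5.17) the level of other nuclei, and the list together 1.55 times (1.38 to 1.73) and 2.14 times (1.81 to 2.52).

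Among 24 readable transcription factors of the lineage, 7 were higher and none were lower. Meis1, a homeodomain factor of stem cells and megakaryocytes (chr11:18879817-19018985, minus strand), had ratios of 6.68 (5.63 to 7.88) and 5.76 (3.86 to 8.31). Zfpm1, the GATA cofactor FOG1, had ratios of 6.91 (4.64 to 9.99) and 7.64 (3.01 to 16.2), Fli1 3.27 (2.68 to 3.94) and 3.51 (2.51 to 4.78), and Gata2 5.01 (3.22 to 7.47) and 3.14 (1.01 to 7.44). Tal1 and Zbtb16 were higher on 8 and 6 and on 10 and 4 UMIs. Runx1, expressed throughout these progenitors, was at ratios of 1.53 (1.33 to 1.77) and 2.30 (1.82 to 2.88). Gata1 gave only 5 and 1 UMIs in members, and Klf1, the erythroid factor, gave 0.

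**Figure D2:**
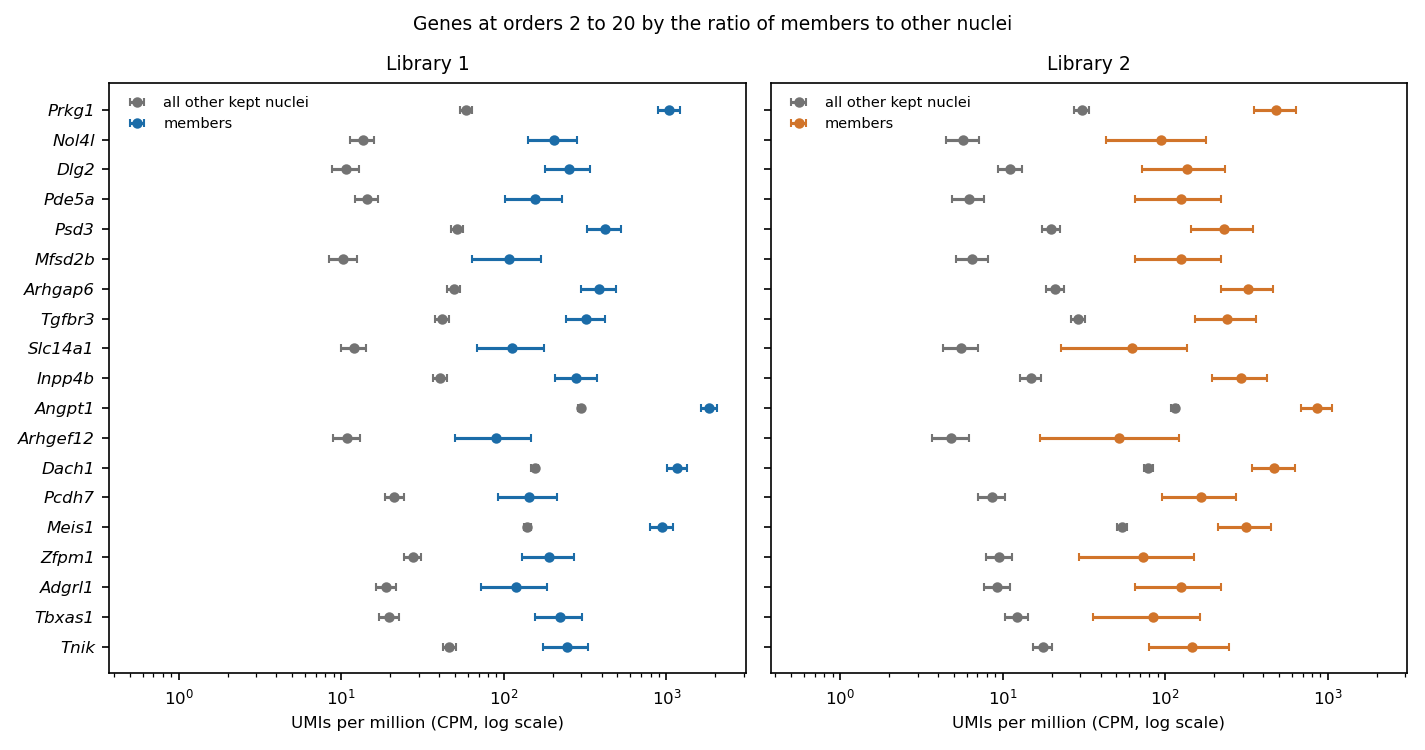
CPM (x axis, log scale) of the genes at orders 2 to 20 by the ratio of members to other nuclei, in each library, with 95% counting intervals; points are members and the other kept nuclei of the same library. In both panels the members lie to the right of the others for every gene shown, for Prkg1 at 1041 against 58.6 CPM in library 1, as the choice of the genes requires.

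The 20 genes with the largest ratios, ordered by the smaller of the ratios of both libraries and with the ribosomal locus and the 5 selecting genes left out, held 8 genes of the 5 lists, among them Prkg1, Pde5a, Arhgap6, Inpp4b, Meis1, Zfpm1 and Tbxas1, and Angpt1 of the stem cell list. The rest came from outside the megakaryocyte lists. Dlg2, a membrane scaffold known from synapses, was at 250 CPM against 10.7 (ratio 23.4, 16 to 33.8) and at 136 against 11.1 (12.2, 6.35 to 21.6). Mfsd2b, the transporter that exports sphingosine 1-phosphate from platelets and red cells, had ratios of 10.4 (5.95 to 17.3) and 19.2 (9.55 to 35.5), and Slc14a1, a urea transporter of red cells, had 9.46 (5.51 to 15.4) and 11.3 (4.01 to 25.9). Tgfbr3, a co-receptor of TGF-beta, was at 321 against 41.6 CPM and 240 against 29.1, and Dach1, a transcriptional cofactor, at 1166 against 155 and 470 against 78.4. The remaining genes were Nol4l, Psd3, Arhgef12, Pcdh7, Adgrl1 and Tnik. Some of these genes were as high in the 28 nuclei of the erythroid set of library 1 (at least 3 UMIs of Car1, Ank1, Klf1, Epor and Rhd). Mfsd2b was there at 163 CPM on 12 UMIs, against 107 in members, Tgfbr3 at 298 on 22 UMIs, Tnik at 244 on 18 UMIs, as in members, and Arhgef12 at 108 on 8 UMIs, against 89.3. Dlg2 and Pde5a gave 0 UMIs in these nuclei. In the 107 stem-like nuclei of library 1 that were not members, some leading genes lay between members and all other nuclei. Dlg2 was there at 101 CPM on 21 UMIs, Tbxas1 at 130 on 27 UMIs, against 220 in members, and Arhgap6 at 250 on 52 UMIs, against 387. Pcdh7 was at 115 on 24 UMIs, against 143. Others did not, with 0 UMIs of Mfsd2b and 3 of Nol4l. The 10 genes with the smallest ratios were Gm26740, Hk3, Ctsg, Plxnd1, Cd48, Tnf, Hsd17b11, Kcnab2, Ebf1 and Aoah, among them a neutrophil protease (Ctsg), a factor of B cells (Ebf1) and a surface protein of lymphoid and committed progenitors (Cd48). Plxnd1, Cd48, Tnf, Kcnab2 and Aoah gave 0 UMIs in the members of both libraries, so their place in this order is set by the 5 CPM added, and the interval of the ratio reached above 1 in both libraries for Cd48, Tnf and Kcnab2.

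Genes of the stem cell were partly shared. Of 11 readable genes of that list 3 were higher (Mecom, Meis1 and Angpt1), none were lower, and the summed list was at 4.31 times (3.95 to 4.68) and 4.05 times (3.41 to 4.78) the level of other nuclei. Angpt1 and Meis1 supplied 463 of its 585 UMIs in library 1 and 112 of 145 in library 2. Without this pair, a split chosen after its values were seen, the list was at 1.95 times (1.62 to 2.34) and 1.68 times (1.15 to 2.36). Angpt1, angiopoietin 1, was at 1821 CPM against 296 in library 1 and at 856 against 114 in library 2, with UMIs in 70 of 77 and 37 of 50 members. Mecom, a zinc finger factor of stem cells, had ratios of 4.98 (3.53 to 6.86) and 2.36 (0.860 to 5.20). Cd34, in contrast, was not above the rest, with ratios of 0.893 (0.426 to 1.65) and 0.890 (0.288 to 2.09). Nuclei with at least 3 UMIs of the stem genes Mecom, Hlf, Prdm16 and Myct1 numbered 7 among 77 members and 1 among 50, together 6.30% (2.76 to 12.03), against 0.971% of the other nuclei.

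Prkg1 stood further above the stem-like nuclei than Angpt1 and Meis1 did in library 1. In library 2 the point values had the same order, on few UMIs and with no interval computed. In the 107 stem-like nuclei of library 1 that were not members, Prkg1 was at 534 CPM, against 1041 CPM in members. Angpt1 and Meis1 were there at 1973 and 991 CPM, against 1821 and 934 CPM, which is no higher in members than in the stem-like nuclei. Library 2 held 24 such nuclei, with Prkg1 at 214 CPM on 9 UMIs against 480 in members, Angpt1 at 619 on 26 UMIs against 856, and Meis1 at 286 on 12 UMIs against 313.

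Granulocyte-monocyte and lymphoid genes were lower or did not pass. None of 17 readable granulocyte-monocyte genes were higher and 6 were lower (Mpo, Elane, Ctsg, Ms4a3, Ly86 and Irf8; Ms4a3 turned to a log2 ratio of 0.031 in library 2 without nuclei of the pro-B or granule protease sets), the list being at 0.415 times (0.353 to 0.484) and 0.442 times (0.374 to 0.520) the level of other nuclei. Mpo, myeloperoxidase, was still at 256 CPM in the members of library 1 and 595 CPM in library 2. At least 3 UMIs of Mpo, Elane, Prtn3, Ctsg and Ms4a3 were found in 17 members, 13.4% (7.995 to 20.6), against 43.1% of the other nuclei. Of 9 readable lymphoid genes 4 were lower (Ebf1, Igll1, Cd79a and Dntt, the last at a log2 ratio of 0.079 in library 1 when a sum of 2 was enough), and 3 members had at least 3 UMIs of the pro-B genes, 2.36% against 11.2%. Granule protease and pro-B RNA was thus present in members at a lower level than in the other nuclei, and the part of free RNA or of doublets in it was not tested.

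Erythroid genes gave 1 higher (Car2, carbonic anhydrase 2) and 1 lower (Tfrc, the transferrin receptor) among 5 readable. No member had 3 UMIs of the erythroid set (Car1, Ank1, Klf1, Epor and Rhd) or of the basophil and mast cell set, and 0 of 127 allows a share of up to 2.36%, above the 0.237% and 0.274% of the other nuclei that did, so no difference could be seen. The 12 endothelial genes, which would mark vessel cells in the gate, gave 5 and 3 UMIs in members, and none could be read. Their summed list was at ratios of 2.45 (0.782 to 5.87) and 3.09 (0.629 to 9.25), too few UMIs to tell a difference. Genes of endomitosis and cytokinesis, the cycles without division that make megakaryocytes polyploid, showed 0 of 22 higher and 0 lower. Their median log2 ratio was -0.37 in library 1 and 0.18 in library 2, while the summed list was at ratios of 1.15 (1.04 to 1.26) and 1.44 (1.24 to 1.66), so that median and sum differ in sign in library 1. Of 42 S phase genes none were higher and 2 (4.76%) were lower (Uhrf1 among them), beside 4.71% of all genes. Of 49 G2/M genes 1 (2.04%) was higher (Ckap2), beside 2.49% of all genes. These calls were thus near the shares over all genes. Of 14 interferon response genes none passed in either direction.

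Open chromatin was read next at gene starts. A promoter, taken as 1 kb each side of a start, was counted when its ATAC CPM differed at least 1.5-fold in both libraries with 1 CPM added, among promoters with at least 100 counts in each library. By this rule 808 of 19498 promoters (4.14%) were higher in members and 1366 (7.01%) were lower. Of the 131 readable promoters of the 5 lists 24 (18.3%) were higher and 5 were lower, with medians of 0.25 and 0.28 on the log2 scale beside 0.07 and 0.08 over all promoters.

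Surface receptors had 10 of 26 promoters higher, among them Gp1ba, Gp1bb and Gp9 of the von Willebrand factor receptor, the thrombin receptor genes F2rl2 and F2rl3, the ATP receptor P2rx1, Clec1b, the podoplanin receptor, the adrenergic receptor Adra2a, and the adhesion receptor Cd226. One was lower, Pecam1. The start of Gp1ba (chr11:70639122, plus strand) held 53 counts in the members of library 1, 35.0 ATAC CPM (23.0 to 51.1) against 4.17 in other nuclei, a ratio of 8.39 (5.39 to 12.5), and 30 counts in library 2, 31.6 ATAC CPM (17.7 to 52.1) against 4.29, a ratio of 7.37 (4.07 to 12.4). Its ratios were the largest of these promoters, while its RNA was 2 UMIs in all members. Gp9 was 3.78 times (1.86 to 6.89) and 5.03 times (2.33 to 9.55) as accessible as in other nuclei.

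Among signalling genes 7 of 30 promoters were higher, among them Gucy1a1 and Gucy1b1, the subunits of the soluble guanylate cyclase that makes the cGMP on which Prkg1 acts, and Pde3a, which degrades cyclic nucleotides. Gucy1b1 had ratios of 3.26 (2.02 to 5.02) and 3.04 (1.56 to 5.36), and in library 2 its log2 ratio turned to -3.24 in the 13 members with a sum of at least 5. Rgs18 had 2.79 (1.78 to 4.17) and 2.30 (1.24 to 3.92). The other higher signalling promoters were Prkcq, Gng11 and Ptgs1, the cyclooxygenase of platelets. Gng11 turned to -0.12 in library 2 at a sum of at least 5, and Gucy1a1 to -0.28 in library 1 after thinning.

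Of granule genes only the Pf4 promoter, 1 of 26 readable (3.85%, near the 4.14% over all promoters), was higher. It was at 35.0 ATAC CPM against 13.03 in library 1 and at 34.8 against 12.99 in library 2. The promoters of F5, F13a1 and Serpine2 were lower (11.5%, beside 7.01% over all promoters). In library 2 the log2 ratio of Pf4 turned to -0.25 at a sum of at least 5, and that of F5 to 0.16 within 500 bases of the start. In the cytoskeleton list 4 of 27 were higher (Tubb1, Mylk, Tuba8 and Cttn) and Flna, filamin A, was lower. Tubb1 rested on 5 and 7 counts, with ratios of 1.93 (0.315 to 6.34) and 5.21 (1.23 to 14.6). Of 22 transcription factor promoters Tal1 and Lmo2, which bind DNA in 1 complex with GATA factors, were higher. Of the selecting genes, which the rule chose by RNA, 4 promoters could be read and 3 were higher. Itga2b was at 41.6 ATAC CPM against 10.8 (ratio 3.86, 2.61 to 5.53) and 31.6 against 10.8 (2.93, 1.63 to 4.87), Trpc6 at ratios of 2.59 (1.23 to 4.83) and 4.28 (2.03 to 7.98), and Med12l at 1.95 (1.41 to 2.63) and 1.77 (1.16 to 2.60).

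Promoters of other lineages were also read. Of 18 granulocyte-monocyte promoters 11 were lower and none were higher, and Ctsg held 0 counts in the members of both libraries. Of 15 lymphoid promoters 5 were lower. Of 21 erythroid promoters 4 (19.0%) were higher and none were lower (among them Epor, the erythropoietin receptor, Sptb, a spectrin of the red cell membrane, and Aqp1). Epor had ratios of 2.31 (1.47 to 3.46) and 4.14 (2.73 to 6.05). Of 19 stem cell promoters 5 (26.3%) were higher (Myct1, Esam, Pdzk1ip1, Gprasp2 and Mycn). Of 9 endothelial promoters 3 (33.3%) were higher (Kdr, Emcn and Tie1). The shares in the erythroid, stem cell and endothelial lists were thus no smaller than the 18.3% of the 5 megakaryocyte lists, beside 4.14% over all promoters. Stem cells and megakaryocytes partly share such genes with vessels, and the part of vessel cells was not tested.

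Both measures were available for part of the lists. Of 81 listed genes with both measures 24 were higher in RNA and 4 at the promoter, and 3 were higher in both (Rgs18, Prkcq and Tal1). Over all genes 198 that were higher in RNA had a promoter that could be read, of which 10.1% were also higher there, beside 1.25% of all 8062 genes with both measures.

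Single peaks were compared at 2-fold, again in both libraries, among 103952 peaks with at least 200 counts in each library. In members 2591 peaks (2.49%) were higher and 13517 (13%) were lower. At the minimum of 200 counts a peak is expected to give only 2.56 counts in the members of library 1 and 1.47 in library 2, so that many lower calls are peaks in which members had 0 counts. Among the 12282 peaks with at least 2000 counts 0.147% were higher and 2.73% were lower. The 500 peaks with the largest ratio, taking the smaller of both libraries, are called leading peaks. Of these, 3.60% were within 1 kb of a start, against 15.4% of all peaks tested, and 72.6% were more than 10 kb away, against 55.9%. The peaks counted as lower were also far from starts, with 3.77% within 1 kb and 67.2% more than 10 kb away. The nearest start belonged to a gene of the 5 lists in 13 of 500 (2.60%), against 0.916% of the tested peaks.

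The peaks that led in 1 library were also higher in the other, which is a measure the choice did not use. The 500 with the largest ratios in library 1 had a median log2 ratio of 2.07 in library 2, where 486 of them were above 0 and the median of all peaks was -0.22, and the 500 chosen in library 2 had a median of 1.91 in library 1, with 487 above 0. The same held to a smaller extent for genes. Of those at least 2-fold higher in library 1, 37.1% were so in library 2, against 12.4% of all genes tested, and for promoters at 1.5-fold the shares were 35.2% against 14.1%.

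Sequences of 4 leading peaks are shown, 3 that hold the GATA letters and 1 that does not, because those letters set the leading peaks apart below. All are the central 300 bases of the peak on the plus strand of GRCm38, and capitals mark GATA letters (AGATAA or TGATAA, or TTATCT and TTATCA when they lie on the minus strand), ETS letters (CCGGAAG or CAGGAAG, with CTTCCTG on the minus strand) and RUNX letters (TGTGGT, or ACCACA). Peak 1, chr16:34050192-34050491, lies in an intron of Kalrn, a guanine nucleotide exchange factor. Peak 2, chr9:64932210-64932509, lies in an intron of Slc24a1, and peak 3, chr13:95657211-95657510, in an intron of Iqgap2, 38.9 kb from the start of the thrombin receptor gene F2r. Peak 5, chr6:112402161-112402460, is intergenic, nearest to Ssu2.
leading peak 1: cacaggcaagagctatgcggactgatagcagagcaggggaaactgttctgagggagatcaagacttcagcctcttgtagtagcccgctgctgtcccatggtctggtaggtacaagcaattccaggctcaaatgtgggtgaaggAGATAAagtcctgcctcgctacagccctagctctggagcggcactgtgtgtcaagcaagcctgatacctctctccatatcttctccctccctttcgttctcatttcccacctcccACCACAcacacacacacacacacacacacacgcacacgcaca
leading peak 2: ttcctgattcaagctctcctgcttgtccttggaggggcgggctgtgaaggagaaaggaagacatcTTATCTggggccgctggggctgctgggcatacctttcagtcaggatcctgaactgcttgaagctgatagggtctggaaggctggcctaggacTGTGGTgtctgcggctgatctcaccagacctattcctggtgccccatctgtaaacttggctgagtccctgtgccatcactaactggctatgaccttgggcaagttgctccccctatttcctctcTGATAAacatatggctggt
leading peak 3: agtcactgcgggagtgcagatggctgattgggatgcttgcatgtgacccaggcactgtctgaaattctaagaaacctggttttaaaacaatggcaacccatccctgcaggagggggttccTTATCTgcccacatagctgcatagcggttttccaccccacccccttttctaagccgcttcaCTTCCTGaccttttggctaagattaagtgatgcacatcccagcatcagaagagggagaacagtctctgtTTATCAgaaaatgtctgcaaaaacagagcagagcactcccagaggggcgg
leading peak 5: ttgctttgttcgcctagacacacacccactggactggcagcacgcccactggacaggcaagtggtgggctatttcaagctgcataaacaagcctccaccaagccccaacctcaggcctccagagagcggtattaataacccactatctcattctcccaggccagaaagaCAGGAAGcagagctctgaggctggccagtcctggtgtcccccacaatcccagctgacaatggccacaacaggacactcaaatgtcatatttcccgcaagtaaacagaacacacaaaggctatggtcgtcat

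Peak 1 held 39 counts in the members of library 1, 25.7 ATAC CPM (15.6 to 40.0) against 1.64 in the other nuclei, and 29 counts in library 2, 30.6 ATAC CPM (16.9 to 50.8) against 2.04. The ratios were 15.7 (9.14 to 25.8) and 15.0 (8.05 to 25.8). Kalrn RNA was itself among the genes counted as higher, on 11 and 3 UMIs. Peak 2 had ratios of 15.4 (9.03 to 25.1) and 16.8 (9.10 to 28.8), while Slc24a1 gave 0 UMIs in members. Peak 3 had 12.4 (7.59 to 19.3) and 16.2 (9.73 to 25.7). Its host Iqgap2 was close to the other nuclei, with log2 ratios of 0.15 and 0.63, and F2r, with too few UMIs to be read by the rule, gave 9 UMIs in members against 69 in all other nuclei of library 1 and 4 against 32 in library 2. Peak 17 (chr13:95671191-95672090), in the same Iqgap2 gene and 25.2 kb from F2rl2, had ratios of 8.78 and 14.9. Peak 5, without GATA letters in its centre, was at 12.3 (6.75 to 20.9) and 14.0 (7.02 to 25.4). The other 6 of the 10 leading peaks lay in an intron of Fry, in an exon of Arrb1, in an intron of Slit1 and nearest to Ktn1, Epha4 and 1500009L16Rik. Further down the order, and named after their values were seen as peak 17 was, stood 1 peak in an intron of Itgb3 (order 218) and 1 upstream of Pde5a (order 14, ratios of 10.2 and 20.9).

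The peak on the start of Gp1ba was the leading peak 39. The 250 bases before this start, chr11:70638872-70639121 on the plus strand (RefSeq annotation of GRCm38.p6), are shown because they belong to the listed promoter with the largest ratio, with capitals as above.
Gp1ba promoter: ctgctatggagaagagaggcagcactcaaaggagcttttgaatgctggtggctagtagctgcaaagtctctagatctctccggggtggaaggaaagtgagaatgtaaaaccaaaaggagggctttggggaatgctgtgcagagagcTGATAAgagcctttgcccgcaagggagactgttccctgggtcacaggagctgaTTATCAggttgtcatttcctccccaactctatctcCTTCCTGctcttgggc
These bases hold the GATA letters 2 times and the ETS letters 1 time. Of the 32851 RefSeq promoters of the same length, 16.6% hold the GATA letters and 17.0% the ETS letters.

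**Figure D3:**
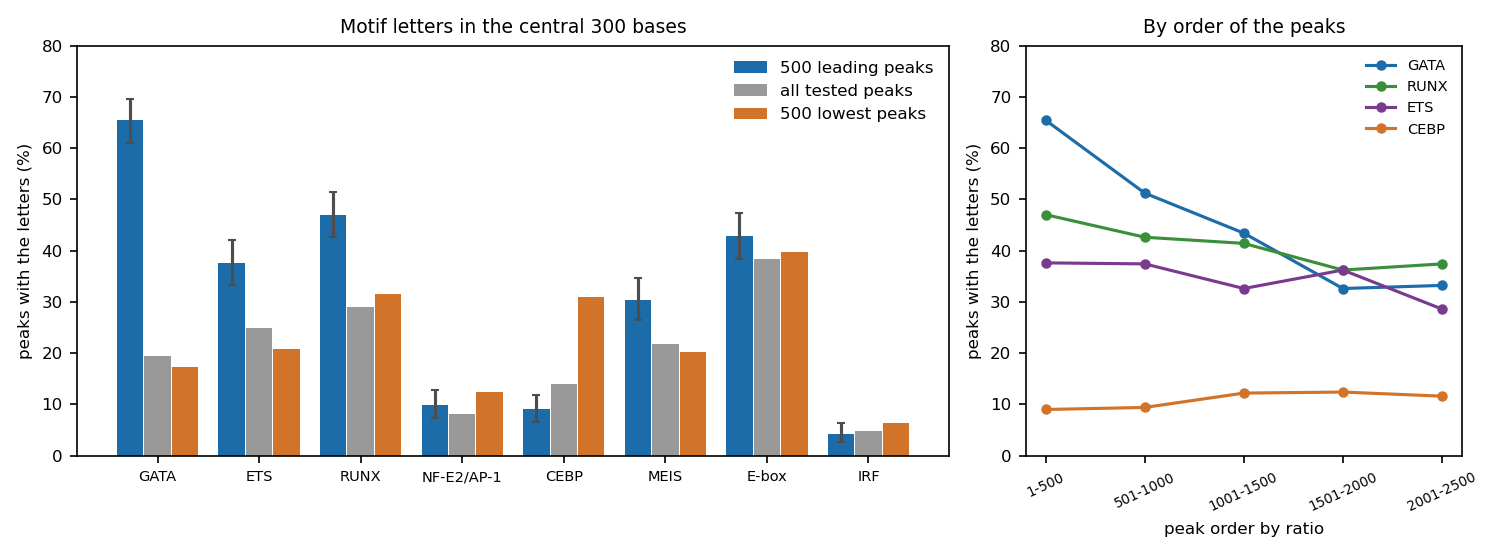
Share of peaks (y axis, %) whose central 300 bases hold each motif's letters, for 8 of the motifs in the 500 leading peaks, all tested peaks and the 500 lowest peaks, with 95% binomial intervals on the leading peaks; the right panel gives the share for GATA, RUNX, ETS and CEBP letters by order of the peaks (x axis) in steps of 500. GATA letters are in 65.4% of the leading peaks and in 33.2% of those at orders 2001 to 2500.

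Motif letters were searched on both strands in the central 300 bases of the peaks, of which 103911 tested peaks had sequence. GATA letters were present in 327 of the 500 leading peaks, 65.4% (61.0 to 69.6), against 19.4% of all tested peaks and 17.2% of the 500 lowest. Further down the order of the peaks the share was smaller, with 51.2%, 43.4%, 32.6% and 33.2% in the next steps of 500. It was not tied to promoters, since among peaks more than 1 kb from a start it was 65.4% against 21.5%. RUNX letters were in 47.0% (42.6 to 51.5) against 29.1%, ETS letters in 37.6% (33.3 to 42.0) against 24.9%, and MEIS letters (TGACAG) in 30.4% (26.4 to 34.6) against 21.9%. GATA and ETS letters stood together in 23.8% of the leading peaks and in 4.73% of all tested. CEBP letters (TTGCNNAA), bound by factors of the granulocyte-monocyte lineage, went the other way, with 9.0% (6.64 to 11.9) in the leading peaks, 13.9% in all and 31.0% in the lowest. The letters of NF-E2 and AP-1 (TGAGTCA or TGACTCA) were in 9.8% (7.34 to 12.7) against 8.21%, and those of IRF in 4.2% (2.62 to 6.35) against 4.88%. Both intervals hold the share of all tested peaks. E-box letters (CAGCTG or CAGATG) were in 42.8% (38.4 to 47.3) against 38.3%. EBF letters and the SRF CArG box were rare, in 1.2% and 1.0% of the leading peaks against 1.04% and 1.45% of all tested. CTCF letters were in 0 of 500, which allows up to 0.6%, against 1.10% of tested peaks. Median GC content of the central bases was 50% in leading peaks and 50.3% in all tested. These are matches of letters, and no binding was measured.

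**Figure D4:**
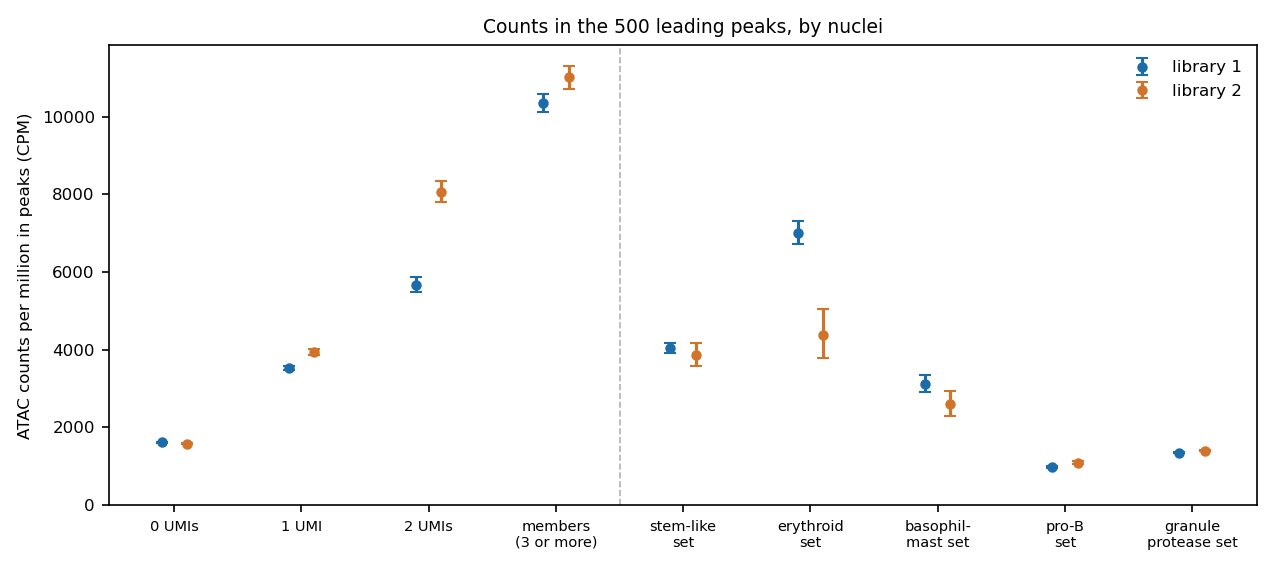
ATAC CPM (y axis) in the 500 leading peaks for nuclei with 0, 1 or 2 UMIs of the selecting genes, for members, and for non-member nuclei of 5 other marker sets, per library, bars being 95% counting intervals. Nuclei with a sum of 2 (5677 and 8070) lie between those with a sum of 0 (1613 and 1577) and members (10358 and 11011).

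Nuclei outside the rule graded towards the members in these peaks. The 500 leading peaks held 1613 ATAC CPM (1602 to 1624) in nuclei without any UMI of the 5 genes in library 1, 3528 (3466 to 3591) at a sum of 1, 5677 (5481 to 5878) at a sum of 2 and 10358 in members. In library 2 the values were 1577, 3950, 8070 and 11011. The peaks were chosen for members against all others, of which nuclei with a sum of 0 were 5414 of 5828 and 7253 of 7664. The choice thus sets the members' value and favours a low value at a sum of 0. It likewise favours a low value in the granule protease set, 2065 and 3748 of the others. Nuclei with sums of 1 and 2 were few among the others, so the order between these sums is less tied to the choice. Of the nuclei that belonged to other marker sets, the erythroid set had the value nearest to members, with 7009 (6720 to 7308) in 28 nuclei of library 1 and 4385 (3794 to 5041) in 4 nuclei of library 2. The stem-like set followed with 4042 and 3861 and the basophil and mast cell set with 3120 and 2605. The granule protease set (1351 and 1400) and the pro-B set (978 and 1088) were below the nuclei without any UMI of the 5 genes. In library 2 the interval of the 4 erythroid nuclei held the value at a sum of 1 and overlapped that of the stem-like set (3574 to 4164).

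Vwf, one of the selecting genes, was found in 18 of 77 members (23.4%, 14.5 to 34.4) in library 1 and in 20 of 50 (40%, 26.4 to 54.8) in library 2, with overlapping intervals. Since the rule used Vwf, members with and without it are set side by side as a description only. The stem cell list was at 3029 CPM (2527 to 3602) with and 3633 (3308 to 3982) without Vwf in library 1, and at 1453 (1082 to 1910) and 1549 (1252 to 1896) in library 2, with overlapping intervals. Within it, and named after their values were seen, Cd34 and Hlf gave 0 UMIs in the 38 members with Vwf, whereas the 89 without it gave 10 and 5 UMIs of Cd34 and 13 and 2 of Hlf. For Cd34, 0 UMIs allow up to 71.0 CPM in library 1 and 85.4 in library 2, against 79.5 (38.1 to 146) and 82.4 (26.8 to 192) CPM without Vwf. For Hlf the same limits stand beside 103 (55.0 to 177) and 33.0 (3.99 to 119) CPM without Vwf. These limits lie within the intervals without Vwf. Summed over both libraries, each gene gave 0 UMIs with Vwf and 15 without, a ratio with an interval of 0 to 0.672, in groups that draw 18 of 38 and 59 of 89 nuclei from library 1. Mecom was at 71.0 CPM (14.6 to 207) with and 302 CPM (214 to 415) without Vwf in library 1, on 3 and 38 UMIs, and at 57.0 and 65.9 CPM in library 2, on 2 and 4 UMIs. Dlg2 was at 521 CPM with and 159 without Vwf in library 1, and at 114 and 148 CPM in library 2. The 5 megakaryocyte lists were at 17701 CPM (16455 to 19017) with and 15646 (14962 to 16353) without Vwf in library 1, and at 11023 (9952 to 12177) and 9196 (8449 to 9992) in library 2. At the 135 unused marker peaks the members with Vwf had 690 and 609 ATAC CPM and those without it 687 and 631, within counting error of each other.

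Members made up 1.30% (1.03 to 1.63) of kept nuclei in library 1 and 0.648% (0.481 to 0.854) in library 2. The share in library 1 was 2.01 times (1.39 to 2.93) that in library 2, where the median nucleus held fewer genes. Among nuclei with at least 500 genes the shares were 1.78% (1.40 to 2.22; 74 of 4169) and 1.56% (1.06 to 2.21; 31 of 1988), a ratio of 1.14 (0.739 to 1.79), with 1988 of 7714 nuclei of library 2 left. After thinning each nucleus of at least 1000 UMIs to 1000 UMIs, they were 0.678% (0.467 to 0.951; 33 of 4865) and 0.320% (0.198 to 0.488; 21 of 6569), a ratio of 2.12 (1.19 to 3.86). The ratio was thus about as large with equal UMIs and smaller with a higher minimum of genes. The larger share of ribosomal locus RNA in library 2 leaves fewer UMIs for other genes at the same total, and its part in the share was not tested.

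Between the libraries, 249 genes had at least 20 UMIs in the members of each, with a median log2 ratio of library 2 over library 1 of -0.29, beside -0.41 in the other nuclei for the same genes. Relative to that median 6 genes were more than 2-fold above and 4 more than 2-fold below. The largest ratios were those of Mpo (2.33, 1.54 to 3.54), Myo3a (2.04, 1.54 to 2.69), Cdk8 (1.93, 1.73 to 2.15), Camk1d (1.83, 1.70 to 1.96) and Prtn3 (1.75, 0.979 to 3.14). All were also higher in library 2 in the summed other nuclei, with ratios of 1.41, 1.44, 1.46, 1.95 and 1.68. The smallest were those of Meis1 (0.335, 0.219 to 0.498), Arid1b (0.375, 0.225 to 0.598), Etv6 (0.387, 0.266 to 0.549), Dach1 (0.403, 0.285 to 0.559) and Zbtb20 (0.409, 0.261 to 0.622), and these too were lower in the summed other nuclei, at 0.389, 0.381, 0.452, 0.505 and 0.328. Among the selecting genes Vwf was at a ratio of 1.48 (0.853 to 2.55), Itga2b at 0.865 (0.564 to 1.31) and Med12l at 0.857 (0.673 to 1.09).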

How the data were processed

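The deposited matrix held raw counts made by the authors with Cell Ranger ARC 2.0.0 on GRCm38 (mm10), in 32272 rows of genes (UMIs) and 174339 rows of peaks (ATAC), over 18961 barcodes that the study had not yet filtered. The labels also name Seurat 4.0.3 and Signac 1.3.0 for later steps, none of which are in the matrix. Mitochondrial genes had 0 rows, so the study's limit on them could not be applied here. Peak entries were even in 82.5% of cases, so ATAC intervals were computed on pairs of counts. Counts were summed over members and over the other kept nuclei of the same barcode suffix and scaled to a total of 1000000 (CPM). Values carry exact Poisson, exact conditional ratio or exact binomial intervals. The upper limit that a count of 0 is said to allow was instead 3 divided by the total, which is lower than the upper end of an exact 95% interval. With 1 sample per group and suffixes tied to no sample, no test was run. Calls use ratios in both libraries with the minimum counts and pseudocounts given in the text. The text names the selecting genes, listed genes past the fold and up to 10 more per list with the most UMIs, the genes with the 20 largest and 10 smallest ratios by the smaller of both libraries, the 5 largest and 5 smallest ratios between libraries, and the 10 leading peaks. Of the listed symbols 3 were not found. Some genes that this rule would name are not reported here. Gene positions come from an annotation that matched 99.6% of gene IDs, and promoter sequences from RefSeq (GRCm38.p6). The members and lists were chosen with earlier results of these data known. Doublet scores came from Scrublet (scanpy 1.11.5). Python 3.11.15, numpy 2.4.6, scipy 1.17.1, pandas 2.3.3 and matplotlib 3.10.9 were used, and the scripts were tested on simulated data. Alternatives changed the marker sum, the filters, doublets, depth, pseudocounts and folds.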

Additional observations from a re-analysis of the deposited data

Results flagged for a closer look

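Barcodes above the limit of 50000 ATAC counts in peaks were left out of every comparison, and marker RNA was present there too. In library 1, 9 of 474 such barcodes, 1.90% (0.872 to 3.57), had at least 3 UMIs of the 5 selecting genes, an interval that holds the 1.30% of kept nuclei. In library 2 it was 1 of 123, 0.813% (0.0206 to 4.45), beside 0.648% of kept nuclei. The 9 barcodes of library 1 had a median of 4789 UMIs, against 2597.5 for all 474, and the part of this higher depth in the share was not tested. Below 1000 counts in peaks 3 of 303 and 2 of 385 barcodes met the sum, and below 200 genes 0 of 2080 and 0 of 1977 did.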

How the results depend on the processing

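No paired analysis was possible because each group held 1 sample and the suffixes were tied to none. The share of members in libraries 1 and 2 was 2.44% and 1.40% at a sum of 2, 0.660% and 0.169% at 5, 1.78% and 1.56% with 500 genes, 2.49% and 1.08% without nuclei of 3 or more pro-B or granule protease UMIs (mixed nuclei), and 0.678% and 0.320% after thinning to 1000 UMIs. Genes lower numbered 160 at a sum of 2, 1181 at 5, 200 with 500 genes, 1473 after thinning, 102 at 200 UMIs and 607 with a pseudocount of 1 CPM. Genes higher numbered 111 with 500 genes, 130 without mixed nuclei, 331 at 1 UMI and 87 at 200 UMIs, those of the 5 lists 43 and 13 at the last 2 settings. Peaks higher numbered 1077 and lower 6268 without mixed nuclei, 4252 and 22168 at 50 counts, 907 and 1711 with a pseudocount of 5, 751 and 6505 at 3-fold, and 23991 were lower at a sum of 5. GATA letters were in 59.0% of leading peaks at a sum of 5, 72.0% of 200 and 58.3% of 1000 leading peaks. Members in the granule protease set were 0% without mixed nuclei, by construction, and 3.704% after thinning, and in the stem-like set 1.85%. At a sum of 5, 1 gene was above and 2 below the median library ratio. Minimums added after seeing the data gave 11 genes higher, 15 lower and 2 of the lists higher at 1000 UMIs, 11 list promoters at 1000 counts, and 18 peaks higher and 335 lower at 2000 counts, where fewer features were tested. At single genes the log2 ratio turned for Dntt (0.079, library 1) and Vipas39 (0.023, library 2) at a sum of 2, Ms4a3 (0.031, library 2) without mixed nuclei and Slc18a2 (-1.96, library 2) after thinning, and at promoters for Gng11 (-0.12), Gucy1b1 (-3.24) and Pf4 (-0.25) in library 2 at a sum of 5, Gucy1a1 (-0.28, library 1) after thinning and F5 (0.16, library 2) within 500 bases. The cause was not tested. Of the alternatives for summary values, 75 moved less than counting error or 1.5 times and 45 moved more. Of those for single genes and promoters 1043 moved less, 40 moved more and 9 turned in sign. Similar counts could hold other genes: of 267 genes higher at a sum of 5, 122 were among the 209, and of 285 after thinning, 67. Of the named genes and promoters that could be read, 48 of 60 and 21 of 32 stayed past the fold at a sum of 2, and 40 of 51 and 20 of 32 after thinning. Depth limits every single gene with fewer than about 10 UMIs in members.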
